A study of Homo sapiens with 16 samples.

Results

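OGG1, the DNA glycosylase that removes oxidised guanine, and 9 other genes of base excision repair were followed through the RNA-seq libraries of an siRNA study in acute myeloid leukaemia cells. The 10 genes, OGG1, MUTYH, NTHL1, NEIL2, UNG, APEX1, XRCC1, POLB, LIG3 and PARP1, were found by gene symbol among the 60357 genes of each deposited table. All 10 were listed in each of the 12 in vitro libraries, and all 10 passed the minimum of 600 reads in total over the libraries compared.

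The cell lines were Kasumi-1 and SKNO-1, established lines from patients with acute myeloid leukaemia that carry the t(8;21) translocation and so express the RUNX1/ETO fusion, of which RUNX1T1 provides the ETO part. Both were cultured in RPMI medium with serum, and SKNO-1 received GM-CSF as well. In each line 3 libraries were labelled siMM-mod, a chemically modified mismatch control siRNA whose genotype is given as WT, and 3 were labelled siRE-mod, the modified siRNA directed at the fusion site and given as a RUNX1/ETO knockdown. Every culture was exposed to lipid nanoparticles at 2 µg/ml for 24 h and harvested on day 3, so that the control carries the nanoparticle too, and there were no untreated libraries. The labels do not say whether replicates were separate cultures, and p-values therefore measure only the spread between these libraries, which may be technical. A further 4 libraries, 2 for each siRNA, came from Kasumi-1 cells in mice, and gave no value for these genes: all 10 were listed at 0 in all 4 libraries, as were ACTB, GAPDH and EEF1A1, and between 0.01997 and 0.0335% of the reads there lay on genes.

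Base excision repair removes single damaged bases. A glycosylase cuts the base from its sugar, an endonuclease nicks the strand at the empty site, and a polymerase and a ligase fill and seal the gap, held together by a scaffold protein and attended by poly(ADP-ribose) polymerase. Myeloid cells make reactive oxygen species in quantity, and 8-oxoguanine, the substrate of OGG1, is a common product of that oxidation.

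The promoter of OGG1 is printed because OGG1 varied most of the 10 genes with RUNX1T1, and RUNX proteins, with the DNA-binding part of RUNX1/ETO among them, recognise a core of the letters TGTGGT. That of LIG3 is printed beside it because LIG3 was the other member that was higher, with no overlap, where RUNX1T1 was lower both in libraries with high and in libraries with low CD34. Both are RefSeq sequences of GRCh38.p14, plus strand, 5′ to 3′. That of OGG1 covers chr3:9749702-9749981, 250 bases before the annotated start and 30 after it, and that of LIG3 covers chr17:34980262-34980511, the 250 bases before its start; capitals mark TGTGGT.
OGG1: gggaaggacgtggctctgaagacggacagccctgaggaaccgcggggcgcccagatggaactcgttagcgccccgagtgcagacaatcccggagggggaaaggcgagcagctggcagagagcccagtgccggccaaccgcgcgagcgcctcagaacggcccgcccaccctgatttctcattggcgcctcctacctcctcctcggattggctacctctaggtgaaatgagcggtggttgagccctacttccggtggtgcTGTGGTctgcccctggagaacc
LIG3: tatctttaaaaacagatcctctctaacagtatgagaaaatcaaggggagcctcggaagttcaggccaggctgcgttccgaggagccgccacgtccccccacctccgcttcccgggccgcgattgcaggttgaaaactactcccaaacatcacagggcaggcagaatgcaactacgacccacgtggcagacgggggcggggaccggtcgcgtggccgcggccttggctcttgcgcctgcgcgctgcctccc
In OGG1 TGTGGT began at base 9, counting the annotated start of transcription as base 1. The letters TGTGGT, or their reverse complement ACCACA, were searched in 300-base windows, 250 before and 50 after each start, and 13.1% of 35116 such promoters held them. Of the 10 genes 8 matched the promoter table, with 11 promoters. Of these 1, that of OGG1, held the letters, against the 13.1% of all promoters. NEIL2 and POLB had no entry. A match is a description of letters and no binding was measured here.

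The labels did not fully separate the libraries by expression. The 12 libraries are therefore described by label, and also in order of CD34 and then of RUNX1T1. CD34 is a surface antigen of stem and progenitor cells. Values are CPM, the count of a gene scaled to a common library total, with library sizes adjusted by TMM, unless another unit is named. CD34 lay between 117 and 420 CPM in 6 libraries and under 1 CPM in the other 6, between 0.107 and 0.626. IL5RA, the interleukin-5 receptor alpha chain, lay the other way, at 0.178 CPM or less in the 6 CD34-high libraries and between 36.2 and 67.9 CPM in the 6 CD34-low ones. Within the CD34-high libraries, RUNX1T1 was 296 to 329 CPM in SKNO-1 siMM-mod replicates 1 and 2 and Kasumi-1 siMM-mod replicate 1. It was 92.7 to 127 CPM in SKNO-1 siMM-mod replicate 3, SKNO-1 siRE-mod replicate 1 and Kasumi-1 siMM-mod replicate 2. Within the CD34-low libraries, RUNX1T1 was 159 to 164 CPM in SKNO-1 siRE-mod replicate 2, Kasumi-1 siMM-mod replicate 3 and Kasumi-1 siRE-mod replicate 2. It was 37.2 to 44.3 CPM in Kasumi-1 siRE-mod replicates 1 and 3 and SKNO-1 siRE-mod replicate 3. Both cell line labels thus occurred on both CD34 sides, and 4 libraries, Kasumi-1 siMM-mod replicate 2, Kasumi-1 siRE-mod replicate 2, SKNO-1 siMM-mod replicate 3 and SKNO-1 siRE-mod replicate 2, had RUNX1T1 levels on the other side from what their siRNA label names within their CD34 level. Among the siMM-mod libraries only Kasumi-1 siMM-mod replicate 3 was CD34-low. Among the siRE-mod libraries only SKNO-1 siRE-mod replicate 1 was CD34-high. The siRNA label and the CD34 side thus largely coincided. These positions were read from measured values and are therefore described with no mean and no test. CD34 and RUNX1T1 themselves are no result.

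Each library held 60559466 to 147990959 counts on genes, with a median of 89160101, and no 2 libraries held identical values. The 6 myeloid markers CD33, ANPEP, MPO, KIT, SPI1 and ELANE each exceeded 1 CPM in every library. The summed T cell, B cell, erythroid and fibroblast markers reached at most 0.401, 3.12, 0.533 and 0.130 CPM, with MS4A1 and COL1A2 at 0 throughout. The epithelial pair, EPCAM and KRT19, summed to 77.3 to 104 CPM in the CD34-high libraries and at most 0.0108 CPM in the CD34-low ones, and EPCAM made up nearly all of it. In bulk RNA, fewer cells of a type and less RNA per cell cannot be told apart.

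OGG1 was the member that varied most, and it was high wherever RUNX1T1 was the lower on its CD34 side. The gene, ENSG00000114026, lies at chr3:9749944-9788219 on GRCh38, plus strand. OGG1 was 1.11 and 1.13 CPM in SKNO-1 siMM-mod replicates 1 and 2 and 1.21 CPM in Kasumi-1 siMM-mod replicate 1, the libraries high in both CD34 and RUNX1T1. It was 9.71 CPM in SKNO-1 siMM-mod replicate 3, 9.14 CPM in SKNO-1 siRE-mod replicate 1 and 10.5 CPM in Kasumi-1 siMM-mod replicate 2, high in CD34 and lower in RUNX1T1. The lowest of the latter stood 7.58-fold above the highest of the former.

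Among the CD34-low libraries OGG1 was 2.49 CPM in SKNO-1 siRE-mod replicate 2, 1.85 CPM in Kasumi-1 siMM-mod replicate 3 and 1.81 CPM in Kasumi-1 siRE-mod replicate 2. It was 14.4 CPM in Kasumi-1 siRE-mod replicate 1, 12.8 CPM in Kasumi-1 siRE-mod replicate 3 and 13.0 CPM in SKNO-1 siRE-mod replicate 3, the libraries low in both. Here the nearest libraries stood 5.13-fold apart. Of 15863 genes kept, 5.73% were higher with no overlap in the RUNX1T1-low libraries on both CD34 sides, and 23 genes, or 0.145%, had gaps at least as large as those of OGG1 on both sides, OGG1 included. The OGG1 values rested on 78 to 1999 reads per library.

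**Figure D1:**
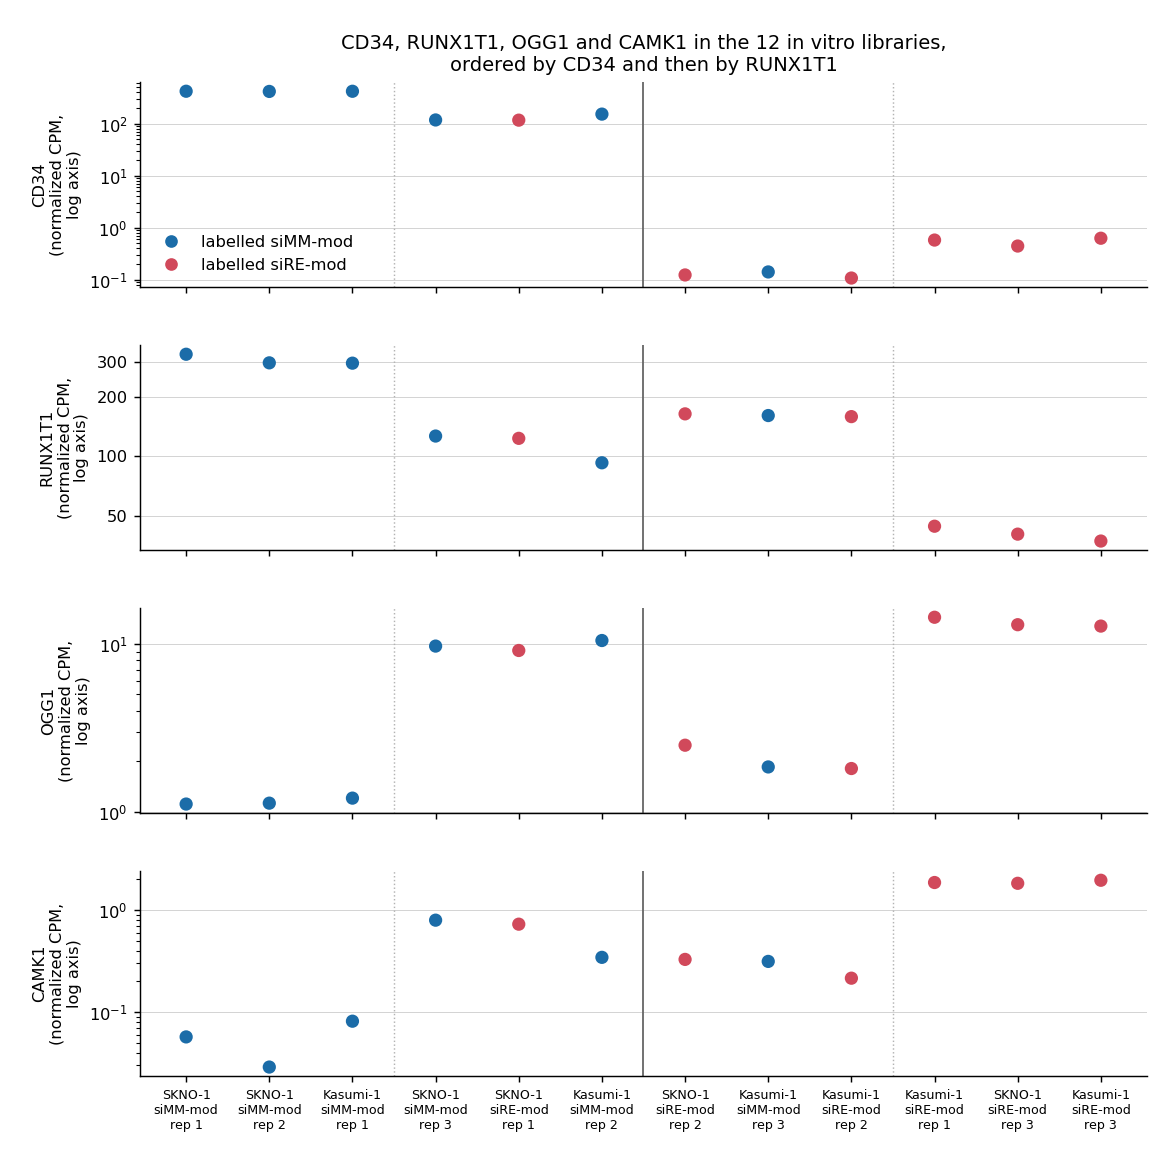
Normalized CPM (log axis) of CD34, RUNX1T1, OGG1 and CAMK1 in each of the 12 in vitro libraries, 1 point per library, blue where labelled siMM-mod and red where labelled siRE-mod; the solid line divides CD34-high from CD34-low libraries and the dotted lines divide higher from lower RUNX1T1. OGG1 sits at 1.11 to 2.49 CPM in the 6 libraries with the higher RUNX1T1 of their CD34 side and at 9.14 to 14.4 CPM in the other 6, and both label colours occur in both.

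Exons of OGG1 overlap those of neighbours on the opposite strand, and the sources used here do not say whether counting used strand, so that reads in the shared bases could belong to either gene. CAMK1, a calcium/calmodulin-dependent kinase, shares 2175 exonic bases with OGG1, which is 24.9% of those of OGG1 and 80.1% of its own. CAMK1 held 923 reads over all 12 libraries. It was 0.0289 to 0.0813 CPM in the libraries high in CD34 and RUNX1T1 and 0.344 to 0.796 CPM in those high in CD34 alone. In the CD34-low libraries it was 0.215 to 0.328 CPM at the higher RUNX1T1 and 1.83 to 1.96 CPM at the lower. CAMK1 was thus high and low in the same libraries as OGG1 within each CD34 side, and the part of shared reads in this was not tested. TADA3, a subunit of histone acetyltransferase complexes, shares 356 exonic bases with OGG1, and was 29.1 to 56.9 CPM.

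By label, OGG1 did not pass the test in either line. In Kasumi-1 the siRE-mod libraries held 14.4, 1.81 and 12.8 CPM for replicates 1, 2 and 3, and the siMM-mod libraries held 1.21, 10.5 and 1.85 CPM. In SKNO-1 they held 9.14, 2.49 and 13.0 CPM against 1.11, 1.13 and 9.71 CPM. The label groups overlapped in both lines. The log2 fold change, siRE-mod minus siMM-mod, was 1.10 (SE 1.08) in Kasumi-1 with an adjusted p of 0.582, and 1.02 (SE 1.01) in SKNO-1 with an adjusted p of 0.732, by edgeR's quasi-likelihood test. The difference between these effects was -0.056 (SE 1.599, adjusted p = 1.00 by edgeR). Without each library in turn the log2 fold change of OGG1 lay between 0.64 and 2.68 in Kasumi-1 and between 0.55 and 2.88 in SKNO-1, and none of these fits called it.

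The 5 genes whose pattern over the 12 libraries was nearest to that of OGG1, among 13961 with a mean of at least 1 CPM, were ADGRE2, RASSF5, ITGAM, LST1 and FGR. Nearness was the root mean square difference of log2 CPM after centring each gene on its mean. It was 0.126 for ADGRE2, an adhesion receptor of myeloid cells, against a median of 1.55 over all genes compared. It was 0.396 for RASSF5, a Ras effector, 0.429 for ITGAM, the integrin chain CD11b, 0.464 for LST1, a leukocyte transcript, and 0.482 for FGR, a Src-family kinase. Of these 5 genes 4 had an entry, with 8 promoters, of which 2, 1 each of ITGAM and FGR, held TGTGGT or its reverse complement, against the 13.1% of all promoters. No other base excision repair member was near OGG1: the closest was POLB at 1.48, with 4522 genes nearer to OGG1 than it. ADGRE2 was 4.13 to 5.26 CPM in the libraries high in CD34 and RUNX1T1 and 34.2 to 37.7 CPM in those high in CD34 alone. It was 6.79 to 8.14 CPM at the higher RUNX1T1 and 42.7 to 47.1 CPM at the lower on the CD34-low side.

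The other glycosylases among the members did not share its pattern. MUTYH, which removes adenine paired with oxidised guanine, was 16.3, 17.3 and 20.0 CPM in the libraries high in CD34 and RUNX1T1 and 16.3, 18.9 and 24.1 CPM in those high in CD34 alone. It was 9.22, 13.4 and 13.1 CPM in the CD34-low libraries at the higher RUNX1T1 and 14.4, 11.2 and 14.9 CPM at the lower. The 6 CD34-low libraries all lay below the 6 CD34-high ones, as did those of 15.6% of all genes, and the positions by RUNX1T1 overlapped on both sides. On the deposited CPM, without TMM scaling, MUTYH overlapped between the CD34 sides. Exons of MUTYH share 419 bases with the opposite-strand gene TOE1, a deadenylase, which was 10.8 to 20.8 CPM.

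NTHL1 and NEIL2 act on oxidised pyrimidines. NTHL1 was 6.00, 8.56 and 9.05 CPM in the libraries high in both. It was 3.08, 4.22 and 7.42 CPM in those high in CD34 alone, with SKNO-1 siMM-mod replicate 3 the lowest. On the CD34-low side it was 5.86, 9.37 and 7.70 CPM at the higher RUNX1T1 and 6.35, 6.25 and 7.77 CPM at the lower. The libraries thus overlapped on both sides. NEIL2 was 8.67, 9.47 and 9.63 CPM in the libraries high in both and 5.48, 5.64 and 8.52 CPM in those high in CD34 alone, all below. It overlapped on the CD34-low side, at 8.08, 7.83 and 7.66 CPM at the higher RUNX1T1 and 6.02, 8.06 and 6.77 CPM at the lower.

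UNG, which removes uracil, lay on opposite sides in the CD34-high and the CD34-low libraries. It was 91.2, 104 and 98.6 CPM in the libraries high in both and 64.4, 62.6 and 83.8 CPM in those high in CD34 alone, all below. On the CD34-low side it was 48.0, 67.8 and 66.9 CPM at the higher RUNX1T1 and 71.7, 90.6 and 79.8 CPM at the lower, all above. Some genes of DNA replication had the same positions. Of 12, 8 were lower without overlap at the lower RUNX1T1 on the CD34-high side and 0 higher, against 20.2% and 18% of all genes, and 8 were higher and 0 lower on the CD34-low side, against 21.7% and 21.6%. MCM3, MCM4, MKI67, CCNB1, CDK1 and RRM2 were among the 8 on both sides, whereas MCM2 and TYMS overlapped on both, MCM5 and MCM7 overlapped on the CD34-high side, and MCM6 and TOP2A on the CD34-low side. RRM2, a subunit of ribonucleotide reductase, was 207 to 241 and 149 to 158 CPM on the CD34-high side and 149 to 181 and 259 to 342 CPM on the CD34-low side. Their part in the level of UNG was not tested.

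APEX1, the endonuclease that nicks the strand at an empty site, was the most abundant member per transcript length (chr14:20455191-20457772). It was 277, 336 and 253 CPM in the libraries high in both and 212, 225 and 281 CPM in those high in CD34 alone, with overlap. On the CD34-low side it was 199.95, 269 and 193 CPM at the higher RUNX1T1 and 150, 183 and 163 CPM at the lower, all below. By label in Kasumi-1 the siMM-mod libraries held 253, 281 and 269 CPM and the siRE-mod libraries 150, 193 and 163 CPM, with no overlap. The log2 fold change was -0.66 (SE 0.14), with an adjusted p of 0.252 by edgeR and of 0.000849 by DESeq2. In that comparison DESeq2 called 9.28% of the 12526 genes to which it gave an adjusted p, and 7.58% as lower. Without TMM scaling the log2 fold change of APEX1 in Kasumi-1 was -0.36 (SE 0.13, adjusted p = 0.166 by edgeR). In SKNO-1, with TMM scaling, it was -0.44 (SE 0.21, adjusted p = 0.494 by edgeR), and the label groups overlapped.

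XRCC1, the scaffold, and POLB, the gap-filling polymerase, showed no position by RUNX1T1 or CD34 without overlap. Exons of XRCC1 share 206 bases with the opposite-strand gene PINLYP. PINLYP was 0.0764 to 0.252 CPM in the CD34-high and 8.98 to 17.2 CPM in the CD34-low libraries, and the part of shared reads was not tested. XRCC1 was 30.4, 32.8 and 36.2 CPM in the libraries high in both. In those high in CD34 alone XRCC1 was 32.1, 32.6 and 48.9 CPM, the last in Kasumi-1 siMM-mod replicate 2. On the CD34-low side XRCC1 was 43.2, 63.4 and 48.1 CPM at the higher RUNX1T1 and 36.9, 47.2 and 34.8 CPM at the lower. It was the member with opposite signs by label, with a log2 fold change of -0.30 (SE 0.24) in Kasumi-1, and of 0.36 (SE 0.19) among the SKNO-1 libraries. The Kasumi-1 value was -0.093 without siMM-mod replicate 3, -0.48 without siMM-mod replicate 1 and -0.0026 without TMM scaling, so that the contrast of signs rests on a value that can lie near 0. The difference of the siRNA effect between lines was 0.68 (SE 0.32, adjusted p = 1.00 by edgeR). POLB was 34.6, 38.4 and 29.4 CPM in the libraries high in both and 29.9, 29.4 and 32.0 CPM in those high in CD34 alone. On the CD34-low side POLB was 34.1, 36.2 and 32.0 CPM at the higher RUNX1T1 and 34.1, 44.9 and 37.6 CPM at the lower. On the deposited CPM POLB was higher without overlap at the lower RUNX1T1 on the CD34-low side, and higher in all CD34-low than in all CD34-high libraries.

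LIG3, the ligase that seals the gap with XRCC1 (chr17:34980494-35009743), was higher in every CD34-high than in any CD34-low library, as were 15.6% of all genes. It was 66.9, 65.6 and 70.9 CPM in the libraries high in both and 72.1, 73.4 and 72.5 CPM in those high in CD34 alone. It was 29.2, 28.7 and 33.7 CPM in the CD34-low libraries at the higher RUNX1T1 and 34.7, 37.8 and 34.9 CPM at the lower. The CD34-low libraries lay at 28.7 to 37.8 CPM and the CD34-high ones at 65.6 to 73.4 CPM, and this held on the deposited CPM. The RUNX1T1-low libraries were higher on both sides, but the nearest libraries stood only 1.02- and 1.03-fold apart, and on the deposited CPM the libraries overlapped on the CD34-high side. RFFL, a ubiquitin ligase gene on the opposite strand, shares 3754 exonic bases with LIG3, which is 29.1% of those of LIG3. RFFL was 11.4 to 12.0 and 20.1 to 24.1 CPM on the CD34-high side and 8.01 to 9.14 and 14.2 to 16.0 CPM on the CD34-low side, so that it was higher at the lower RUNX1T1 on both, and the part of shared reads was not tested. By label the log2 fold change of LIG3 was -0.74 (SE 0.36, adjusted p = 0.332 by edgeR) in Kasumi-1 and -0.54 (SE 0.36, adjusted p = 0.586 by edgeR) in SKNO-1. As the siRNA label largely coincided with the CD34 side, these values cannot be told apart from the step between CD34 sides.

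PARP1, which binds strand breaks and makes poly(ADP-ribose), varied least. It was 386, 369.6 and 381 CPM in the libraries high in both. In those high in CD34 alone it was 312, 310 and 433 CPM, the last in Kasumi-1 siMM-mod replicate 2. On the CD34-low side it was 299, 349.7 and 360.2 CPM at the higher RUNX1T1 and 344, 415 and 379 CPM at the lower, with overlap on both sides. On the deposited CPM PARP1 was higher without overlap at the lower RUNX1T1 on the CD34-low side.

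**Figure D2:**
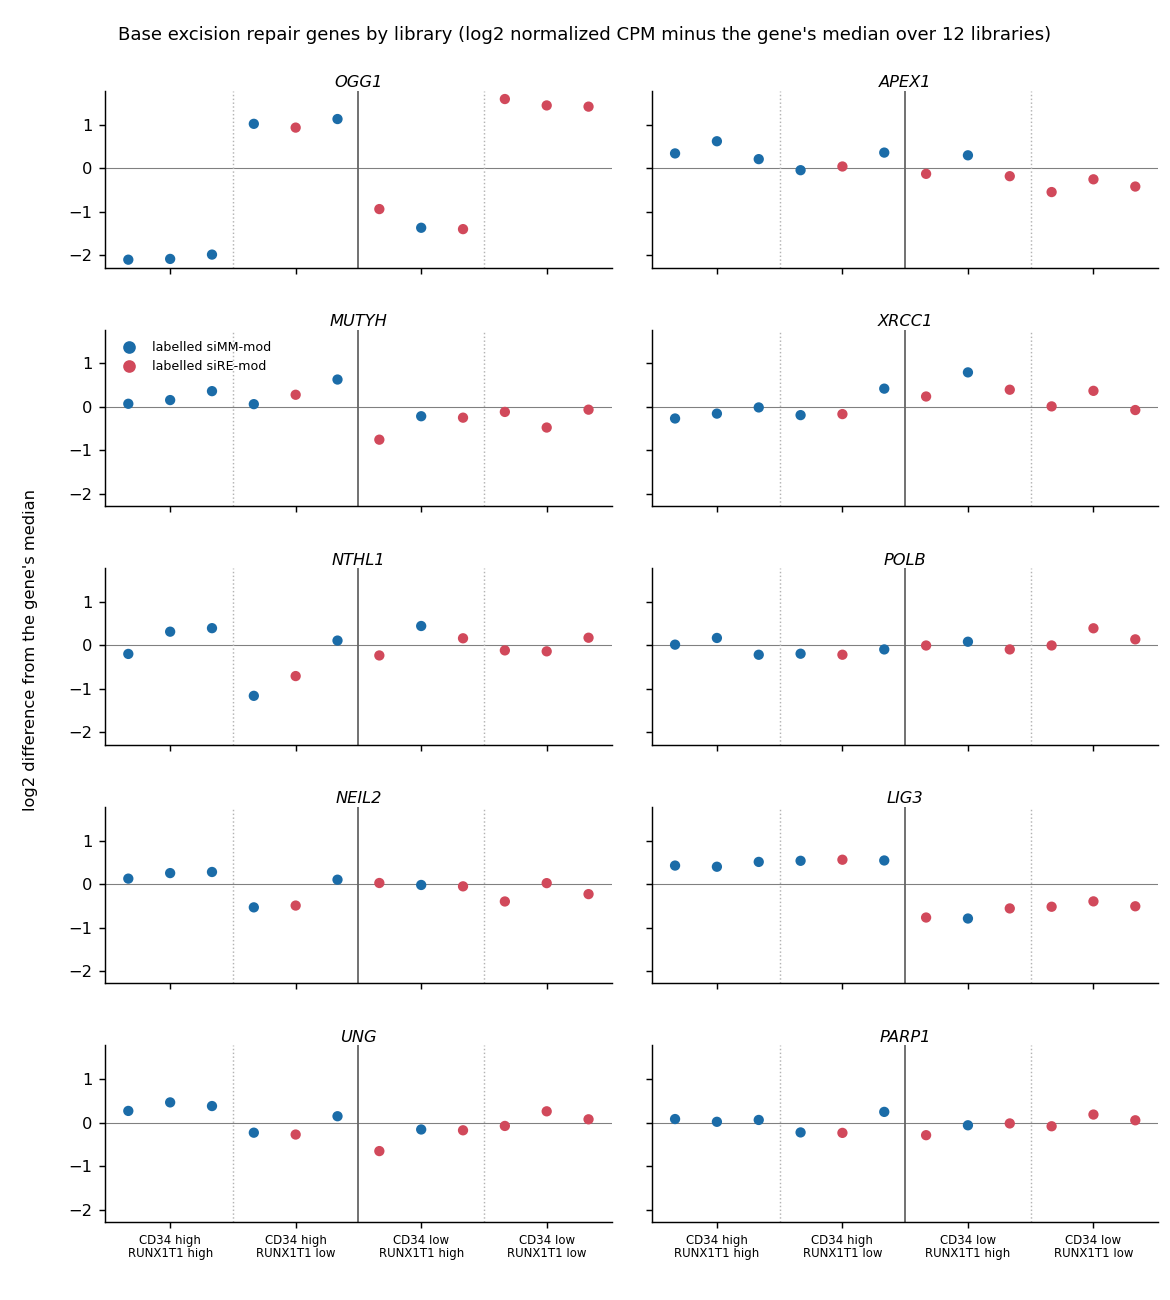
Log2 normalized CPM of each of the 10 genes minus its own median over the 12 in vitro libraries, 1 point per library, blue where labelled siMM-mod and red where labelled siRE-mod, with libraries in order of CD34 and then RUNX1T1. OGG1 alternates between the 4 positions over a log2 range of 3.67, LIG3 steps down from the CD34-high to the CD34-low libraries, and no gene but OGG1 spans more than 3.05-fold.

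Counted over the 10 genes, 2 (OGG1 and LIG3) were higher and 2 (NEIL2 and UNG) lower without overlap at the lower RUNX1T1 on the CD34-high side, against 18% and 20.2% of all genes, or 38.2% in either direction. On the CD34-low side 3 (OGG1, UNG and LIG3) were higher and 1 (APEX1) lower, against 21.7% and 21.6%, or 43.3% in either direction. Higher on both sides were 2 of 10 against 5.73%, and lower on both were 0 of 10 against 6.88%. Between the CD34 sides 0 were higher and 2 (MUTYH and LIG3) lower in the CD34-low libraries, against 17.5% and 15.6%, or 33.1% in either direction. The shares for a single side are near or under the background. On the deposited CPM, 1 was higher and 2 lower at the lower RUNX1T1 on the CD34-high side, against 16.8% and 17.1% of all genes on that scale. There 5 were higher and 1 lower on the CD34-low side, against 31.1% and 15.3%. Between the CD34 sides POLB was higher and LIG3 lower on that scale, 1 each of 10 against 21.6% and 11.3%.

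The range over the libraries set OGG1 apart in size. Its highest library was 13.0-fold its lowest, a log2 range of 3.67, and 9.71% of all genes had a wider one. The other 9 members ranged from 1.45-fold for PARP1 to 3.05-fold for NTHL1, with a median log2 range of 1.12, against 1.43 over all genes kept. The replication genes had a median log2 range of 1.01.

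**Figure D3:**
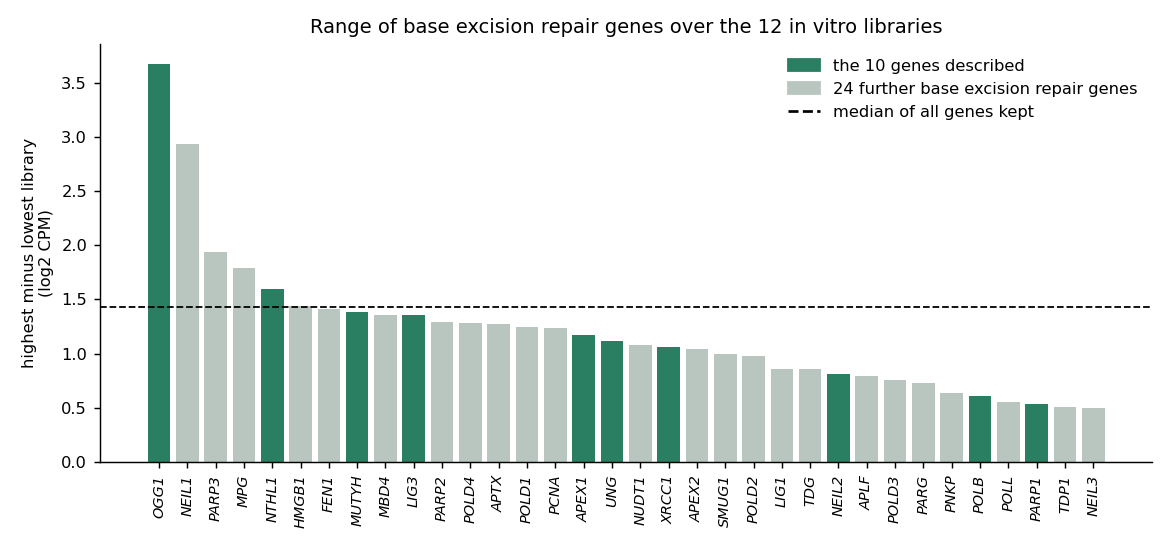
Highest minus lowest library on the log2 CPM scale for the 10 genes described (green) and 24 further base excision repair genes (grey), over the 12 in vitro libraries, with the median of all genes kept, 1.43, as a dashed line. OGG1 has the tallest bar at 3.67, followed by NEIL1 at 2.93.

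Per transcript length the order of the members was steady. In the deposited FPKM, APEX1 was the highest in all 12 libraries, at 94.3 to 152 FPKM, followed in each library by PARP1 at 41.8 to 59.9, UNG at 18.8 to 36.6, XRCC1 at 8.11 to 17.1 and POLB at 6.66 to 11.3 FPKM. MUTYH at 2.37 to 5.26, LIG3 at 2.08 to 5.91, NTHL1 at 1.34 to 3.61 and NEIL2 at 1.72 to 2.71 FPKM changed places among libraries and overlapped. OGG1 was the last of the 10 in all 12 libraries, at 0.110 to 1.97 FPKM, also where it was high.

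The siRNA labels gave no call at an adjusted p of 0.05 by edgeR. Of 13608 genes in Kasumi-1 and 13628 in SKNO-1, 0% were called, with 2435 and 1455 at an unadjusted p under 0.05, APEX1 in Kasumi-1 being the one member among them. DESeq2 called 1163 and 372 genes, the latter being 2.78% of the 13361 to which it gave an adjusted p, with APEX1 in Kasumi-1 the one member. The median log2 fold change of the 10 genes was -0.27 (Kasumi-1) and -0.11 (SKNO-1), against 0.020 and 0.027 over all genes, with 2 and 3 of the 10 above 0. The label groups did not overlap for NEIL2 and APEX1 in Kasumi-1, 2 of 10 against 21.5% of all genes, and for 0 of 10 in SKNO-1 against 11.9%. On the deposited CPM NEIL2 overlapped in Kasumi-1, and APEX1 was lower and POLB and PARP1 higher without overlap, 3 of 10 against 34.6% of all genes, with 0 of 10 against 11% in SKNO-1. Without TMM scaling the median of all genes moved to 0.33 in Kasumi-1 and 0.14 in SKNO-1, and the medians of the 10 genes to 0.027 and 0.035.

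**Figure D4:**
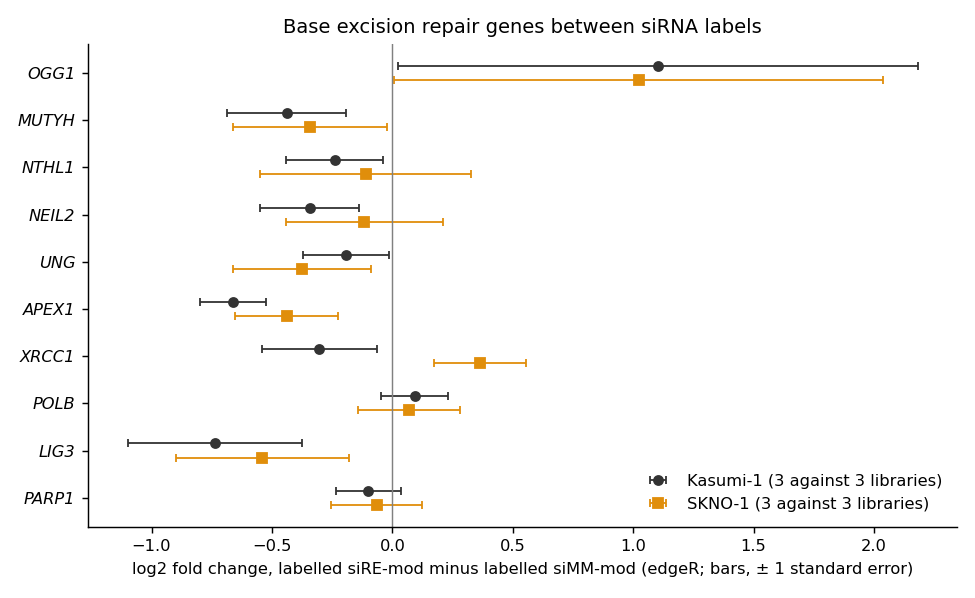
Log2 fold change, labelled siRE-mod minus labelled siMM-mod, of each of the 10 genes by edgeR in Kasumi-1 (black circles) and SKNO-1 (orange squares), 3 against 3 libraries in each line, with bars of 1 standard error on either side. OGG1 has the widest bars, with SEs of 1.08 and 1.01, and APEX1 in Kasumi-1 lies farthest from 0 for its SE, at -0.66 with an SE of 0.14.

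The label comparison turned on single libraries. Without Kasumi-1 siMM-mod replicate 3, a CD34-low library, edgeR called 4250 genes in Kasumi-1, 32.2% of those tested, with 15.7% lower. MUTYH at -0.64 (adjusted p = 0.026 by edgeR), APEX1 at -0.66 (adjusted p = 0.021) and LIG3 at -1.06 (adjusted p = 0.0015) were then lower, and OGG1 at 0.73 was not called. Without SKNO-1 siRE-mod replicate 1, a CD34-high library, 2535 genes were called in SKNO-1, 19.3% of those tested and 8.55% as lower, with LIG3 at -1.06 the one member. With either library left out, the siRNA label coincided with the CD34 side in all remaining libraries of its line. In both of these fits siRNA and CD34 therefore cannot be told apart. With all libraries kept, only the library named above broke that match in each line. The label values with all libraries therefore also mix siRNA and CD34 in large part.

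The cell line labels did not separate the members. Of 15863 genes, edgeR called 0% for SKNO-1 minus Kasumi-1, with 2050 at an unadjusted p under 0.05. DESeq2 called 272, or 1.98% of the 13748 genes to which it gave an adjusted p. OGG1 differed by -0.21 (SE 0.77, adjusted p = 0.883 by edgeR), and NTHL1 came nearest to the threshold at -0.48 (SE 0.23, adjusted p = 0.382). For the difference of the siRNA effect between lines edgeR called 0%, with 106 at an unadjusted p under 0.05. DESeq2 called 127, or 0.808% of the 15713 genes to which it gave an adjusted p. None of the genes called by DESeq2 for either was among the 10.

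Of 24 further genes of the pathway, 0 were called by edgeR with all libraries in any of the 4 comparisons, and DESeq2 called MPG, lower in SKNO-1, for the cell line. Without Kasumi-1 siMM-mod replicate 3, edgeR called 2 higher (APTX and HMGB1) and 5 lower (MBD4, PARG, POLD4, LIG1 and POLD1) in Kasumi-1, and without SKNO-1 siRE-mod replicate 1 it called MBD4 lower in SKNO-1, 7 and 1 of 24 against 32.2% and 19.3% of all genes in either direction. Read by position, 2 were higher and 7 lower without overlap at the lower RUNX1T1 on the CD34-high side, against 18% and 20.2% of all genes, and 12 higher and 2 lower on the CD34-low side, against 21.7% and 21.6%. Positions of these 24 genes were read with TMM scaling only. On the deposited CPM 31.1% of all genes were higher at the lower RUNX1T1 of the CD34-low side. With TMM scaling 8 of the 12 replication genes were also higher there, and their part in these counts was not tested. Between the CD34 sides 3 of the 24 were higher and 4 lower in the CD34-low libraries, against 17.5% and 15.6%. By label their median log2 fold change was 0.043 for Kasumi-1 and 0.023 for SKNO-1.

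Among the 8 of them with the widest ranges were 3 glycosylases. NEIL1, which acts on oxidised pyrimidines, ranged from 0.9902 to 7.70 CPM, with 7.37 and 7.70 CPM in SKNO-1 siMM-mod replicate 3 and SKNO-1 siRE-mod replicate 1 and at most 3.62 CPM in the other 10 libraries. MPG, the alkyladenine glycosylase, ranged from 3.38 to 11.8 CPM. MBD4, which removes thymine from mismatched CpG sites, was 51.0 to 67.4 CPM in the CD34-high and 26.3 to 36.2 CPM in the CD34-low libraries. At the lower RUNX1T1 MBD4 was higher without overlap on both sides, as were 5.73% of all genes. On the CD34-high side it was 62.9 to 67.4 CPM there, against 51.0 to 54.3 CPM at the higher RUNX1T1. On the CD34-low side it was 28.7 to 36.2 CPM, against 26.3 to 27.7 CPM.

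Of the others, PARP3, a polymerase of the PARP1 family, was 2.29 to 4.42 CPM in the CD34-high and 5.20 to 8.84 CPM in the CD34-low libraries, and HMGB1, a chromatin protein and cofactor of long-patch repair, 328 to 458 and 462 to 892 CPM. PARP2, which like PARP1 binds strand breaks, was 38.2 to 48.1 and 19.6 to 38.2 CPM, with overlap. By RUNX1T1, PARP3, HMGB1 and PARP2 overlapped on the CD34-high side and split without overlap on the CD34-low side, as did 43.3% of all genes there. From higher to lower RUNX1T1 on that side, PARP3 was 6.10 to 8.84 and 5.20 to 5.87 CPM. HMGB1 was 462 to 669.9 and 725 to 892 CPM there, and PARP2 19.6 to 23.0 and 31.3 to 38.2 CPM. FEN1, the flap endonuclease, was 53.3 to 58.9 CPM at the higher and 35.7 to 54.0 CPM at the lower RUNX1T1 of the CD34-high side, which overlapped, and 29.4 to 44.9 and 64.4 to 78.3 CPM on the CD34-low side, which did not. POLD4, a subunit of DNA polymerase delta, was 3.80 to 6.88 CPM in the CD34-high and 2.81 to 4.58 CPM in the CD34-low libraries, with overlap.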

How the data were processed

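RNA from the treated cells was sequenced in pairs of reads by the authors. Per the study's methods and the submitters' processing notes, reads were trimmed with Trim Galore 0.6.5, aligned to GRCh38 with STAR 2.7.10a and counted over exons with Subread 1.6.5. Per the file headers the tables were written with Rsubread 1.32.4 under R 3.5.1. The strand setting is not given in the sources used here. The deposited in vitro tables give the raw count, CPM and FPKM of each gene, and the deposited in vivo tables raw counts.

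Counts were tested in R 4.3.3 with edgeR 4.0.16 (TMM, robust quasi-likelihood test, Benjamini-Hochberg adjustment over all genes that reached the minimum of 600 reads summed across the libraries compared, threshold 0.05), siRE-mod against siMM-mod in each line, 3 against 3 libraries, and over 12 libraries for the cell line and the interaction. The scripts were tested on simulated data. The spread between replicates was smaller there, at a dispersion of 0.02 against 0.197 to 0.255 in these libraries. That test therefore does not measure power in these data. Normalized CPM used TMM over the 12 libraries, with TMM factors of 0.854 to 1.19, and a prior count of 2 on the log2 scale. In Kasumi-1 these factors were 0.854 to 0.947 in the siMM-mod and 1.09 to 1.19 in the siRE-mod libraries. DESeq2 1.42.0, its size factors, no TMM, no filter, filterByExpr, a replicate block, 1 fit of all 12 libraries and leaving out each library were the alternatives; reading positions on the deposited CPM was added after seeing the data.

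The members and the further lists were chosen with earlier results of these data known. Named genes were the members, RUNX1T1, CD34, IL5RA, genes whose exons overlap a member, the 8 further repair genes of widest range and the 5 genes most like OGG1. The replication genes described, and further repair genes called in fits that left out a library or by DESeq2, were chosen after their values were seen. Of the overlapping genes, those that share the most exonic bases with OGG1, MUTYH and LIG3 are given. For XRCC1, PINLYP is given and was chosen after its values were seen. Sequences came from RefSeq (GRCh38.p14).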

Additional observations from a re-analysis of the deposited data

How the results depend on the processing

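Calls between the siRNA labels depended on the tool and on single libraries, and OGG1 was not called under any alternative run. By DESeq2 the calls were 1163 for Kasumi-1, 372 for SKNO-1, 127 for the interaction and 272 for the cell line, where edgeR called 0 in each; the cause was not tested. Without TMM edgeR called 2 genes for the cell line. Over fits that each left out 1 library, calls ranged from 0 to 4250 in Kasumi-1 (the highest without siMM-mod replicate 3), from 0 to 2535 in SKNO-1 (without siRE-mod replicate 1) and from 0 to 70 for the cell line (without SKNO-1 siRE-mod replicate 3).

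Signs of values close to 0 turned. Without TMM the log2 fold change became 0.056 for NTHL1, 0.12 for UNG and 0.21 for PARP1 in Kasumi-1, and 0.048 for NTHL1, 0.021 for NEIL2 and 0.060 for PARP1 in SKNO-1. Without TMM all genes shifted upward, as given above. The difference of the siRNA effect on OGG1 between lines became 0.030 without the filter, 0.029 with filterByExpr and 0.77 with the replicate block. With 1 library left out it ran from -1.62 to 1.78, and OGG1 by cell line from -0.98 to 0.45. In SKNO-1 such fits ran from -0.41 to 0.25 for NTHL1, -0.31 to 0.024 for NEIL2, -0.077 to 0.17 for POLB and -0.19 to 0.020 for PARP1. The range of APEX1 over the libraries was 1.17 (log2) with TMM scaling and 0.69 on the deposited CPM.

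Each library was also taken as its deviation, gene by gene, from the mean of its label group. These deviations correlated between same-numbered libraries of the 2 siRNAs at -0.27 to -0.013 in Kasumi-1 and -0.25 to -0.021 in SKNO-1. Each label group mixed libraries of different CD34 or RUNX1T1 level, so that these values cannot show whether replicate numbers pair the libraries. The replicate block called 0 genes in every comparison and gave OGG1 a log2 fold change of 1.75 in Kasumi-1 and, within the SKNO-1 libraries, of 1.503. In all, 183 of 204 values with a library left out and 189 of 205 under other settings kept their direction and their side of the threshold. OGG1 rested on at least 78 reads in each library, and each label comparison on 3 libraries a side.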
